A study of Mus musculus with 10 samples.

Results

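The 9 citric acid cycle enzymes described here were taken by gene symbol from the deposited count files: Cs, Idh2, Idh3a, Idh3b, Ogdh, Sucla2, Suclg2, Fh1 and Mdh2. All 9 symbols were found among the 23337 genes listed, and they lie on different chromosomes, from 1 (Fh1) and 2 (Idh3b, as does Ttn) to 14 (Sucla2). The data were bulk RNA-Seq of poly(A) RNA from left ventricle (LV) and skeletal muscle (SkM) of 5 mice, in 10 libraries, 1 library per mouse and tissue. Of these mice 2 were wild type (WT, replicates 1 and 2) and 3 were E0del/+ (replicates 1 to 3), which carry a heterozygous deletion of E0, an intronic enhancer of the titin gene Ttn. All 5 were hybrids of C57BL/6 and 129SvEv. An age of 17 weeks is in the legend for LV RNA-Seq of a larger set of mice, and the labels used here give none for these. The labels name the skeletal muscle no further. The replicate number is also the batch tag, so batches 1 and 2 each held 1 WT and 1 E0del/+ mouse, and batch 3 held an E0del/+ mouse only. Library totals ran from 11010021 to 17484873 gene counts, with a median of 14050602.5. The lowest count behind a member was 807, for Suclg2 in SkM of E0del/+ replicate 3, and the highest was 72573, for Ogdh in LV of E0del/+ replicate 1.

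The citric acid cycle oxidises the acetyl group of acetyl-CoA in the mitochondrial matrix and hands its electrons to the respiratory chain. Acetyl-CoA comes from pyruvate, fatty acids and ketone bodies, and the heart, which works without rest, draws mainly on fatty acids, while fast skeletal muscle can rely on glycolysis for short bursts. Some steps have more than a single enzyme or isoform: isocitrate is oxidised by an NAD-dependent enzyme (Idh3) and by an NADP-dependent enzyme (Idh2), and succinyl-CoA ligase pairs a common alpha subunit with a beta subunit that makes either ATP (Sucla2) or GTP (Suclg2).

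Defining markers were read before the cycle enzymes. All 8 ventricle markers were higher in LV, where they summed to 55456 to 79972 CPM (each count divided by its library total and scaled to a common total) against 90.0 to 468 CPM in SkM, and all 9 fast fibre markers were higher in SkM, where they summed to 108665 to 119881 CPM. The LV library of WT replicate 2 stood apart: its fast fibre markers summed to 26975 CPM, against 113 to 128 CPM in the other 4 LV libraries. Myh4, the fast myosin heavy chain and the most abundant gene of that list, was at 18473 CPM in that library and 70.3 to 81.7 CPM in the other LV libraries. No fast fibre marker was at 0 in any LV library. The LV library of WT replicate 2 therefore held skeletal muscle transcripts. Tissue differences of the 9 members are given with and without that mouse where its removal changed a call. Those of all other genes are given with that mouse included. The LV library of E0del/+ replicate 2 had the highest endothelial marker sum, 1927 CPM against 966 to 1394 CPM in the other LV libraries. The log2 ratio of a gene to its mean over the other libraries of the tissue went up or down with exon length, depending on the library. In LV the Spearman rho over 9090 genes, which are not independent replicates, was 0.232 and 0.118 in WT replicates 1 and 2, and 0.0962, -0.204 and -0.0627 in E0del/+ replicates 1, 2 and 3. The SkM values were 0.246 and -0.470 in the WT replicates, and 0.367, 0.265 and -0.116 in the E0del/+ replicates, over 7383 genes.

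As a group, the 9 members took a larger share of the LV libraries than of the SkM libraries. In LV they held 1.27% of all gene counts in WT replicate 1, 1.05% in WT replicate 2, and 1.29%, 1.10% and 1.30% in E0del/+ replicates 1, 2 and 3. In SkM they held 0.481% and 0.468% in WT replicates 1 and 2, and 0.475%, 0.486% and 0.481% in E0del/+ replicates 1, 2 and 3. The means were 1.20% ± 0.116 in LV and 0.478% ± 0.00696 in SkM (SD, n = 5 each), and the tissues did not overlap. In bulk tissue, fewer cells of a type and less RNA per cell cannot be told apart, so these shares describe the tissue and not the muscle cell. A share of counts also depends on what else a library holds. The 10 most abundant genes took 27.2 to 29.5% of the counts in SkM and 12.5 to 14.5% in LV. The TMM method of edgeR, which scales libraries so that most genes do not differ, gave factors of 1.17 to 1.42 in LV and 0.708 to 0.900 in SkM. With total counts in place of TMM, the median log2 difference between LV and SkM over all 13283 genes tested moved from 0.02 to 0.68, a shift of 0.66. Each tissue difference below is a log2 difference of TMM-scaled counts in LV against SkM, paired by mouse, unless another scale is named.

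**Figure D1:**
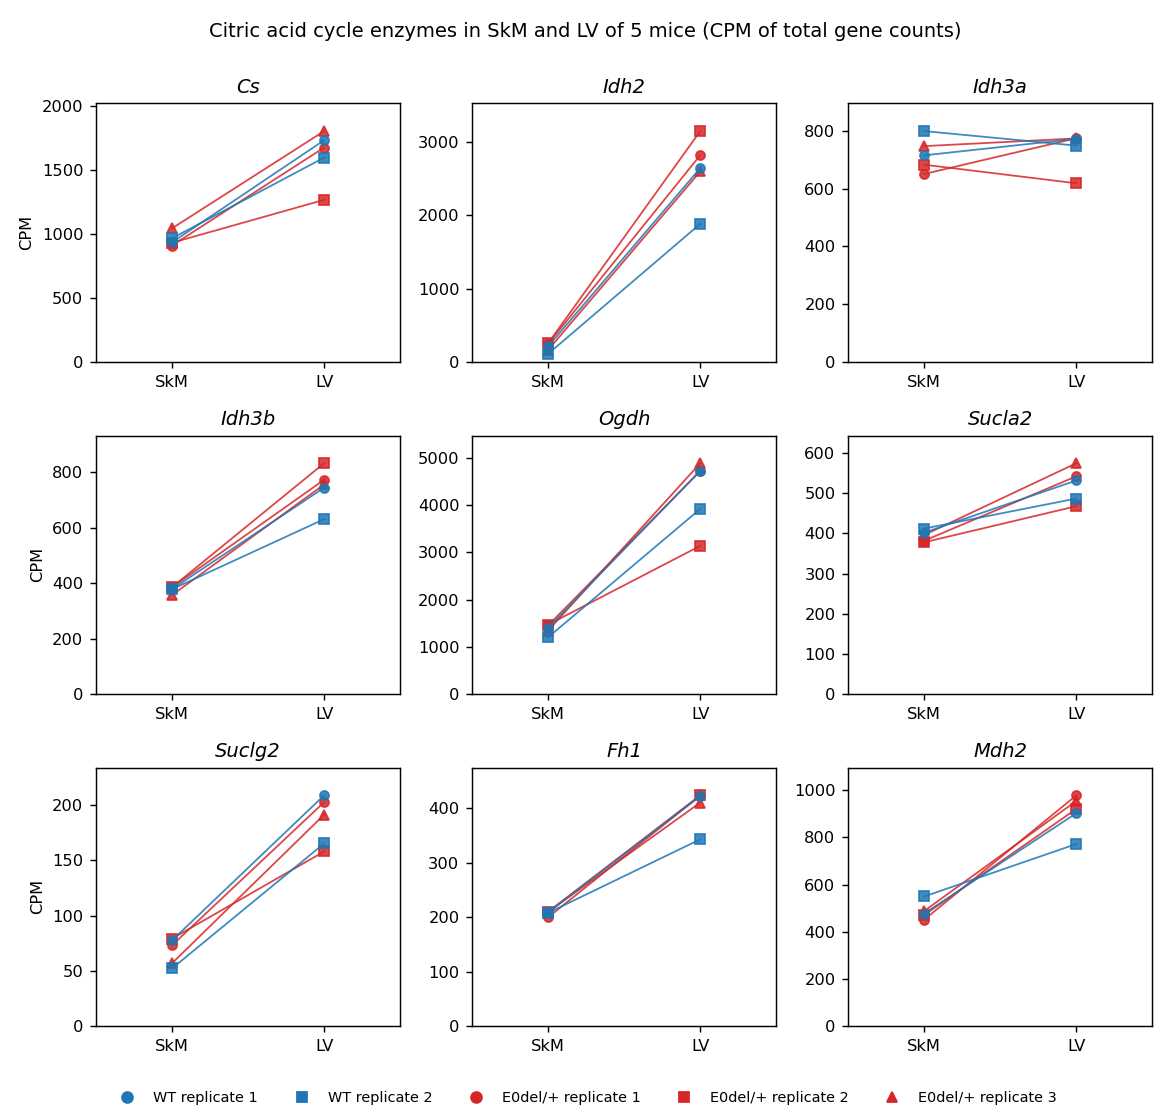
Level of each of the 9 members in SkM and LV as CPM of total gene counts (vertical axes from 0), with a line for each of the 5 mice, blue for WT and red for E0del/+. Idh2 had the largest rise in fold, from 110.3 to 254 CPM in SkM to 1881 to 3144 CPM in LV, while the lines of Idh3a ran up in 3 mice and down in 2 on this scale and it was lower in LV in all 5 on the TMM scale.

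A gene was called when its adjusted p was under 0.05 in the edgeR quasi-likelihood fit over all genes with mouse as a block (Benjamini-Hochberg). Of the 9 members, 3 were called higher in LV (Idh2, Ogdh and Suclg2), 1 was called lower (Idh3a) and 5 were not called (Cs, Idh3b, Sucla2, Fh1 and Mdh2). Of all genes tested, 32.1% were called higher in LV and 30% lower, so 3 of 9 is close to the share of genes at large. Only Idh2 was called higher with a log2 difference of at least 1, a mark that 21.5% of all genes tested reached. The median log2 difference of the members was 0.30 against 0.02 for all genes tested. With total counts in place of TMM, 8 of the 9 members were called higher, all but Idh3a, beside 59.3% of all genes tested, and the members' median was 0.96 against 0.68. The count of 3 was also 5 without WT replicate 2 and 5 without E0del/+ replicate 2, Idh3b and Fh1 being added each time, and 2 without both WT mice, where Ogdh was no longer called.

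Cs encodes citrate synthase, which joins acetyl-CoA and oxaloacetate at the entry of the cycle. In LV it was at 1735 and 1599 CPM in WT replicates 1 and 2, and at 1678, 1269 and 1807 CPM in E0del/+ replicates 1, 2 and 3. In SkM it was at 936 and 968 CPM in the WT replicates, and at 911, 933 and 1046 CPM in the E0del/+ replicates. The CPM ranges of the tissues did not overlap, yet on the TMM scale the log2 difference was 0.08 (SE 0.194, adjusted p 0.733), with LV higher in 4 of 5 mice. On total counts the log2 difference was 0.75 and was called, so the tissue difference in Cs rests on the scaling.

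Idh2 encodes the mitochondrial NADP-dependent isocitrate dehydrogenase, which makes NADPH. It stood at 2640 and 1881 CPM in LV of WT replicates 1 and 2, and at 2816, 3144 and 2595 CPM in LV of E0del/+ replicates 1, 2 and 3. In SkM it stood at 213 and 110.3 CPM in the WT replicates, and at 246, 254 and 163 CPM in the E0del/+ replicates. Every LV library exceeded every SkM library, and the lowest value in each tissue was that of WT replicate 2. The log2 difference was 3.11 (SE 0.195, adjusted p 1.34e-05), an 8.62-fold higher level in LV, with LV higher in 5 of 5 mice. Among the 2251 genes with at least 50 CPM on average in both tissues, Idh2 ranked 9 from the highest by this difference. It was called in all 12 alternative settings, with log2 differences of 3.01 to 3.77.

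Idh3a encodes the catalytic alpha subunit of the NAD-dependent isocitrate dehydrogenase, the form that makes NADH for the respiratory chain. It stood at 773 and 749 CPM in LV of WT replicates 1 and 2, and at 775, 619 and 774 CPM in LV of E0del/+ replicates 1, 2 and 3. In SkM it stood at 716 and 799 CPM in the WT replicates, and at 651, 683 and 747 CPM in the E0del/+ replicates. The tissues overlapped in CPM for Idh3a and not for the other 8 members. The share of all genes without overlap in CPM was not determined. CPM rests on total counts, on which 59.3% of all genes tested were called higher in LV. On the TMM scale Idh3a was lower in LV in 5 of 5 mice, with a log2 difference of -0.63 (SE 0.173, adjusted p 0.0139). On total counts its direction turned, to 0.036, and was not called. Without both WT mice the TMM difference was -0.65 and no longer called (adjusted p 0.0595, range over the 12 alternatives 6.38e-05 to 0.787).

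Idh3b encodes a beta subunit of the same enzyme and Idh3g its gamma subunit, both regulatory. Idh3b ranged from 630.4 to 832 CPM in LV and from 356 to 385 CPM in SkM, with no overlap. Its log2 difference was 0.32 (SE 0.144, adjusted p 0.0870), LV being higher in 5 of 5 mice. Without WT replicate 2 it was 0.39 and called (adjusted p 0.0397), and without E0del/+ replicate 2 it was 0.38 and called (adjusted p 0.0411). It was called in 6 of the 12 alternatives (adjusted p over all 12, 0.000184 to 0.252). Idh3g had 0.23 (SE 0.155, adjusted p 0.228). The catalytic subunit was thus called lower in LV on the TMM scale, where the regulatory subunits were not called, and on total counts Idh3b and Idh3g were called higher and Idh3a was not called.

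The promoters of Idh2 and Idh3b are printed because these isocitrate dehydrogenase genes gave the largest tissue difference and 1 of the motif matches. Each run covers 300 bases around a start site, most of them before it, from the RefSeq promoter table on GRCm38.p6. Idh2 lies at chr7:80115301-80115600 on the minus strand and Idh3b at chr2:130284402-130284701 on the minus strand. Capitals mark a match to the ETS core CCGGAAG, read on either strand.
Idh2: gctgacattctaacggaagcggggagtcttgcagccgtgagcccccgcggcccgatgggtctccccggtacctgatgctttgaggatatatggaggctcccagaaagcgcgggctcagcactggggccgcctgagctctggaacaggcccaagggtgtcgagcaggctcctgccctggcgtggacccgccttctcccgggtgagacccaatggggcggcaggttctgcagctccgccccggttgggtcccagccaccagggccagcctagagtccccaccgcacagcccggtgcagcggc
Idh3b: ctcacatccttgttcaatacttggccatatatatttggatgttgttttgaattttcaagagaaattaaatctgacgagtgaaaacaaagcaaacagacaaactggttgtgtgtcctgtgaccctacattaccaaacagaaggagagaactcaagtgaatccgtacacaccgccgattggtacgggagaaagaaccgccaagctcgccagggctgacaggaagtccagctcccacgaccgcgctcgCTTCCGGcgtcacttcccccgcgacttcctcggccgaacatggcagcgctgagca

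Ogdh encodes the dehydrogenase subunit (E1) of the 2-oxoglutarate dehydrogenase complex, which oxidises 2-oxoglutarate to succinyl-CoA. It was at 4733 and 3923 CPM in LV of WT replicates 1 and 2, and at 4724, 3141 and 4891 CPM in LV of E0del/+ replicates 1, 2 and 3. In SkM it was at 1402 and 1203 CPM in the WT replicates, and at 1454, 1471 and 1345 CPM in the E0del/+ replicates. The tissues did not overlap, and E0del/+ replicate 2 had the lowest LV value. The log2 difference was 0.96 (SE 0.243, adjusted p 0.00945), a 1.95-fold higher level in LV, with LV higher in 5 of 5 mice. Per mouse it was 1.25 and 0.98 in WT replicates 1 and 2, and 1.14, 0.17 and 1.26 in E0del/+ replicates 1, 2 and 3. Without E0del/+ replicate 2 the log2 difference was 1.18, and without both WT mice it was 0.85 and no longer called (adjusted p 0.0624, range over the 12 alternatives 5.13e-07 to 0.0624). Ogdh has the longest summed exons of the 9 members, 6984 bp against 1282 bp for Mdh2, the shortest, and the LV library of E0del/+ replicate 2 was the one whose ratios fell most with exon length. The part of that trend in the low Ogdh value was not tested.

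The other subunits of the same complex differed less. Dlst, its succinyl-transferring core (E2), was called higher in LV with a log2 difference of 0.49 (SE 0.166, adjusted p 0.0324), and Dld, the E3 subunit shared with pyruvate dehydrogenase, had 0.17 (SE 0.139, adjusted p 0.311). Ogdhl, a paralogue of Ogdh, was at 116 to 234 CPM in LV and 2.02 to 3.45 CPM in SkM, a log2 difference of 5.23 (SE 0.138, adjusted p 9.29e-07). The ratio of Ogdh to Ogdhl per exon length was therefore 10.3 to 20.2 in LV and 193 to 343 in SkM, with means of 14.0 and 269 (n = 5 each), a ratio chosen after the values were seen. Ogdh remained the more abundant of the pair per exon length in all 10 libraries.

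The RefSeq table holds 6 promoters for Ogdh. The fourth, at chr11:6291920-6292219 on the plus strand, is printed because it holds the only match among the members to the ERR site AAGGTCA, in capitals as read on the opposite strand.
Ogdh: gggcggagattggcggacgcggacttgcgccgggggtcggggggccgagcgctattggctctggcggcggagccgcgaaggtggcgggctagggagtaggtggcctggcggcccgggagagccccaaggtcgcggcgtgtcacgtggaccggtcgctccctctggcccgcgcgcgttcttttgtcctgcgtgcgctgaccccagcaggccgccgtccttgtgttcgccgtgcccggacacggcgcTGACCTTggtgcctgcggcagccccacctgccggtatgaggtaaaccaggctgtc

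Sucla2 and Suclg2 encode the ATP-forming and GTP-forming beta subunits of succinyl-CoA ligase, and their tissue differences lay apart. Sucla2 was at 532 and 487 CPM in LV of WT replicates 1 and 2, and at 542, 468 and 575 CPM in LV of E0del/+ replicates 1, 2 and 3. In SkM it was at 402 and 412 CPM in the WT replicates, and at 382, 378 and 396 CPM in the E0del/+ replicates. The CPM ranges did not overlap, but the gap was narrow. Its log2 difference was -0.26 (SE 0.149, adjusted p 0.156), with LV lower in 5 of 5 mice, and on total counts the direction turned, to 0.40, and was called (adjusted p 0.00846, range over the 12 alternatives 0.00846 to 0.360).

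Suclg2 was at 209 and 165 CPM in LV of WT replicates 1 and 2, and at 202, 158 and 191 CPM in LV of E0del/+ replicates 1, 2 and 3. In SkM it was at 77.5 and 52.2 CPM in the WT replicates, and at 73.0, 79.1 and 56.8 CPM in the E0del/+ replicates. The tissues did not overlap. The log2 difference was 0.80 (SE 0.163, adjusted p 0.00348), a 1.74-fold higher level in LV, with LV higher in 5 of 5 mice, though by 0.072 only in E0del/+ replicate 2. Suclg1, the common alpha subunit, had a log2 difference of 0.02 (SE 0.122, adjusted p 0.888). A processed pseudogene of Suclg2, Gm15163, matches its transcript at 98.9% over 1302 bases and is not among the genes listed. How reads that match more than 1 place were treated is not given in the sources used here, so the level of Suclg2 is less certain than those of the other members.

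The promoters of the beta subunit pair are shown because their tissue differences had opposite signs on the TMM scale, though the same sign on total counts. Sucla2 lies at chr14:73552536-73552835 on the plus strand and Suclg2 at chr6:95718797-95719096 on the minus strand. Neither holds a match to the motifs searched, so both runs are in lower case throughout.
Sucla2: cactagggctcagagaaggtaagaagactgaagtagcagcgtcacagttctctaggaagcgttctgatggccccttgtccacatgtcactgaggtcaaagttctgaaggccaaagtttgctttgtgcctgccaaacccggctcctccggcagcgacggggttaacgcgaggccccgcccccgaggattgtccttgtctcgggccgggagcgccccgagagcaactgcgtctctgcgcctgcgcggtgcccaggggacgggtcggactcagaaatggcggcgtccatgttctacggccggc
Suclg2: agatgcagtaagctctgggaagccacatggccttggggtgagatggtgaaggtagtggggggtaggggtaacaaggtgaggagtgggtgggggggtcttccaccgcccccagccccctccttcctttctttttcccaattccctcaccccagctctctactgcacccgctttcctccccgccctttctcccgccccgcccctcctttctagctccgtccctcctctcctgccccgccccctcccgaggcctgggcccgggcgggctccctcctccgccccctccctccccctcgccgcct

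Fh1 encodes fumarase, which hydrates fumarate to malate. It was at 422 and 343 CPM in LV of WT replicates 1 and 2, and at 423, 424 and 411 CPM in LV of E0del/+ replicates 1, 2 and 3, against 199.9 to 210.1 CPM in SkM. The tissues did not overlap, and the log2 difference was 0.30 (SE 0.134, adjusted p 0.0875), with LV higher in 4 of 5 mice. Without WT replicate 2 it was 0.37 and called (adjusted p 0.0466), and without E0del/+ replicate 2 it was also 0.37 and called (adjusted p 0.0354). It was called in 5 of the 12 alternatives (adjusted p over all 12, 0.000121 to 0.260). Mdh2, the mitochondrial malate dehydrogenase that regenerates oxaloacetate, was at 903 and 772 CPM in LV of the WT replicates and at 978, 921 and 955 CPM in LV of the E0del/+ replicates, against 452 to 549.7 CPM in SkM. It did not overlap between tissues either, and its log2 difference was 0.23 (SE 0.170, adjusted p 0.274), with LV higher in 4 of 5 mice. On total counts both were called higher in LV, by 0.96 for Fh1 and 0.89 for Mdh2. Between fumarase and the ligase stands succinate dehydrogenase, which is also complex II of the respiratory chain. Its subunit Sdhb, which carries the iron-sulphur clusters, was called higher in LV with a log2 difference of 0.48 (SE 0.154, adjusted p 0.0269), while Sdha had 0.27, Sdhc 0.28 and Sdhd 0.28, none of them called.

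**Figure D2:**
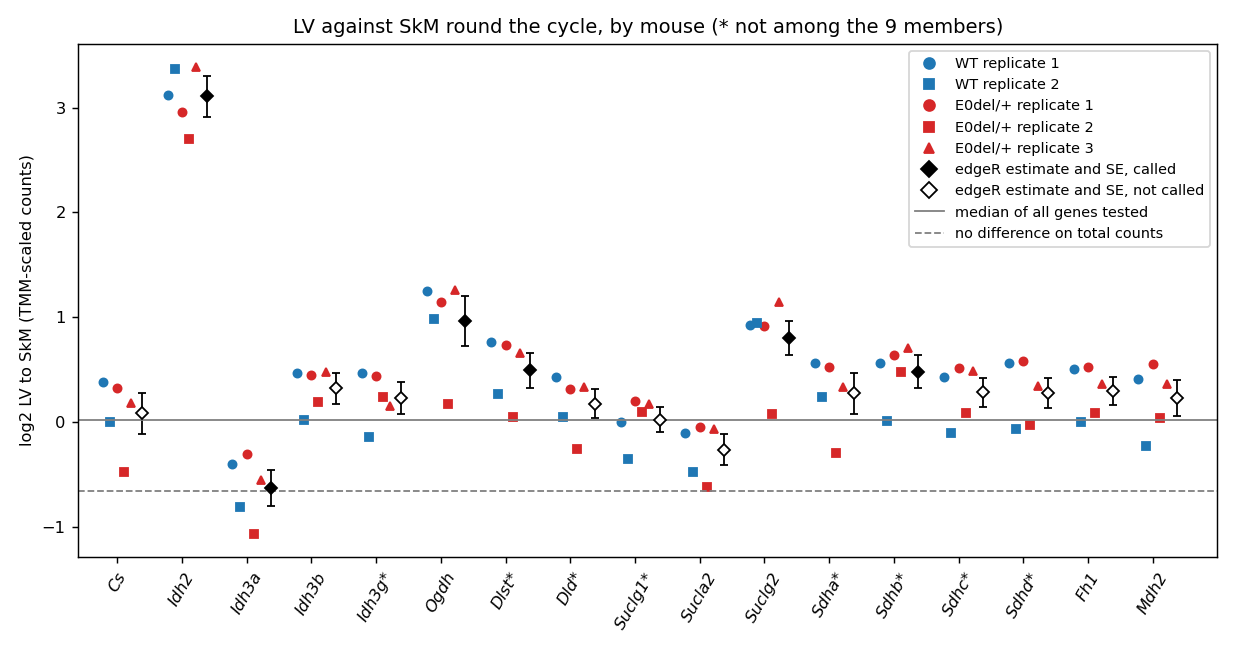
Log2 ratio of LV to SkM (vertical axis, TMM-scaled counts) for 17 enzymes in the order of the cycle, with a coloured point for each of the 5 mice and a diamond with SE for the edgeR estimate, filled where called; starred names are not among the 9 members. Idh2 lies at 3.11, Idh3a at -0.63 and Sucla2 at -0.26, and against the dashed line, which marks no difference on total counts, Idh3a and Sucla2 turn to 0.036 and 0.40.

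The tissue difference was uneven across the cycle, mainly through Idh2. The SD of the log2 difference over the 9 members was 1.08, and 0.518 over the 8 members without Idh2, against 1.65 over all genes tested. Over the 8 other cycle enzymes (Idh3g, Dlst, Dld, Suclg1, Sdha, Sdhb, Sdhc and Sdhd) the SD was 0.154, with log2 differences from 0.02 to 0.49 and a median of 0.28. Of those 8, Dlst and Sdhb were called higher, none was called lower, and all 8 were called higher on total counts, beside 32.1% of all genes tested called higher on the TMM scale and 59.3% on total counts. Within single mice, the SD over the members was 1.02 and 1.25 in WT replicates 1 and 2, and 0.947, 1.06 and 1.14 in E0del/+ replicates 1, 2 and 3. The same SD over the 2251 genes with at least 50 CPM in both tissues was 1.35 and 1.02 in the WT replicates and 1.33, 1.43 and 1.41 in the E0del/+ replicates. The members were thus spread less than those genes in 4 mice and more in WT replicate 2, the mouse whose LV library held skeletal muscle transcripts and whose SD over those genes was the lowest. Without Idh2 the SD over the members was 0.630 in WT replicate 2 and 0.464 to 0.595 in the other mice, less than over those genes in every mouse. These SDs describe the list and carry no test.

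Set against the median ratio of the 9 members in the same mouse, which removes the scaling between libraries, Idh2 was the highest and Idh3a the lowest in all 5 mice. Idh2 lay above the median by 2.82 ± 0.371 (log2, SD, n = 5) and in 5 of 5 mice, and Ogdh by 0.67 ± 0.350 in 5 of 5. Suclg2 lay above it by 0.51 ± 0.366 in 4 mice and was itself the median in E0del/+ replicate 2. Idh3a lay at -0.91 ± 0.132 and Sucla2 at -0.55 ± 0.0985 against that median, both below it in 5 of 5 mice. Idh3b (0.03), Fh1 (0.01) and Mdh2 (-0.06) were close to it, and Cs lay at -0.20 ± 0.211. Idh2, Ogdh and Suclg2 thus leaned to the LV and Idh3a and Sucla2 to the SkM relative to the rest of the list, whatever the library scaling.

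Levels of different genes were compared per exon length, as the deposited RPKM (counts divided by exon length and by library total). In LV the order by mean RPKM was Idh2 (1536), Mdh2 (707), Ogdh (613), Cs (572), Idh3b (491), Idh3a (307), Fh1 (248), Sucla2 (247) and Suclg2 (81.2). Idh2 exceeded Mdh2, Idh3b exceeded Idh3a, and Sucla2 exceeded Suclg2 with no overlap of RPKM over the 5 libraries, while each other pair of neighbours in that order overlapped. In SkM the order by mean RPKM was Mdh2 (380), Cs (339), Idh3a (299), Idh3b (248), Ogdh (197), Sucla2 (187), Fh1 (127), Idh2 (116) and Suclg2 (29.7). There Mdh2 and Cs, Cs and Idh3a, Ogdh and Sucla2, and Fh1 and Idh2 overlapped in RPKM, and the other neighbours did not. The main change of order was that of Idh2, first of 9 in every LV library and 7 or 8 of 9 in every SkM library by RPKM.

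**Figure D3:**
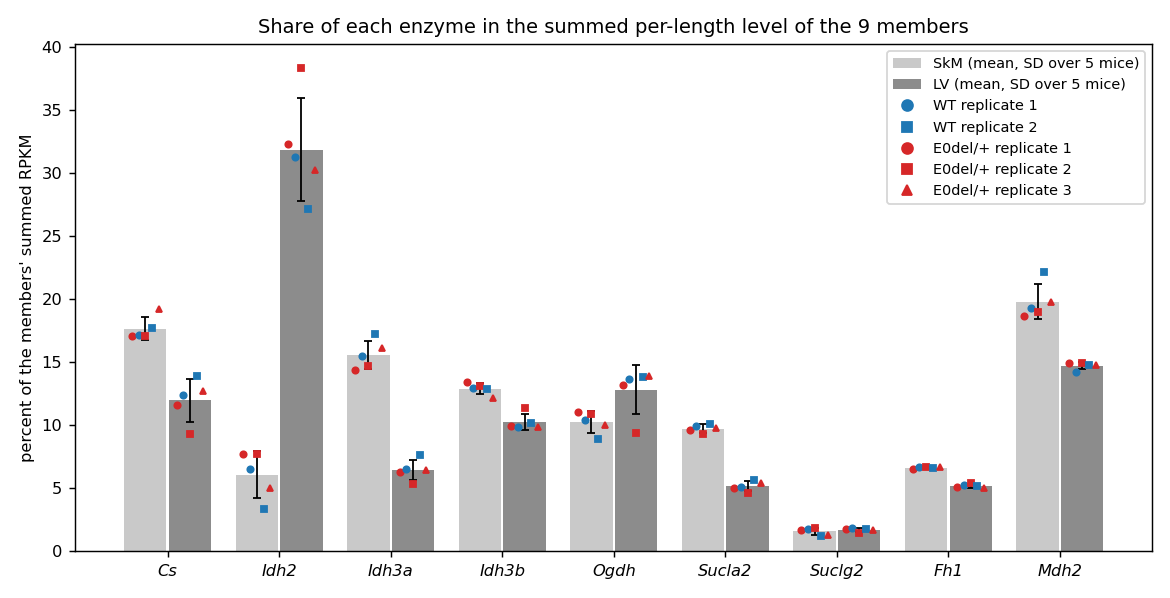
Share of each member in the summed RPKM of the 9 members (vertical axis, percent, from 0), with bars for the mean and SD over 5 mice in SkM (light) and LV (dark) and a point for each library. Idh2 took 31.9% in LV and 6.04% in SkM, and Suclg2 was the lowest in both, at 1.69% and 1.55%.

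As a share of the members' summed RPKM, Idh2 took 31.9% ± 4.10 in LV and 6.04% ± 1.87 in SkM (SD, n = 5 each). Idh3a took 6.43% ± 0.821 in LV and 15.6% ± 1.15 in SkM, and Sucla2 took 5.16% ± 0.405 and 9.72% ± 0.320. Suclg2 held nearly the same low share in both, 1.69% ± 0.157 in LV and 1.55% ± 0.285 in SkM. Evenness of the levels within a tissue was of the same order in both: the SD of log2 RPKM over the members was 1.21 ± 0.0627 in LV and 1.14 ± 0.139 in SkM. The highest member exceeded the lowest, which was Suclg2 in all 10 libraries, by 19.1-fold ± 4.41 in LV and 13.3-fold ± 3.59 in SkM, and these ranges overlapped.

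Ratios within a library do not depend on its scaling. The ratio of Sucla2 to Suclg2 per exon length was 2.75 and 3.19 in LV of WT replicates 1 and 2, and 2.89, 3.20 and 3.25 in LV of E0del/+ replicates 1, 2 and 3. In SkM it was 5.61 and 8.54 in the WT replicates, and 5.65, 5.16 and 7.54 in the E0del/+ replicates. The ATP-forming subunit was the more abundant transcript in all 10 libraries, and its excess was smaller in LV in 5 of 5 mice, with no overlap. The log2 ratio differed by -1.06 ± 0.275 between LV and SkM (SD, n = 5; two-sided exact permutation of signs, p = 0.0625, the smallest that 5 pairs allow). The ratio of Idh2 to Idh3a per exon length was 4.82 and 3.55 in LV of the WT replicates, and 5.13, 7.18 and 4.73 in LV of the E0del/+ replicates. In SkM it was 0.420 and 0.195 in the WT replicates, and 0.534, 0.526 and 0.309 in the E0del/+ replicates. The NADP-dependent form was thus above Idh3a in every LV library and below it in every SkM library. The log2 ratio differed by 3.74 ± 0.358 (SD, n = 5; exact permutation of signs, p = 0.0625), a 13.3-fold difference.

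**Figure D4:**
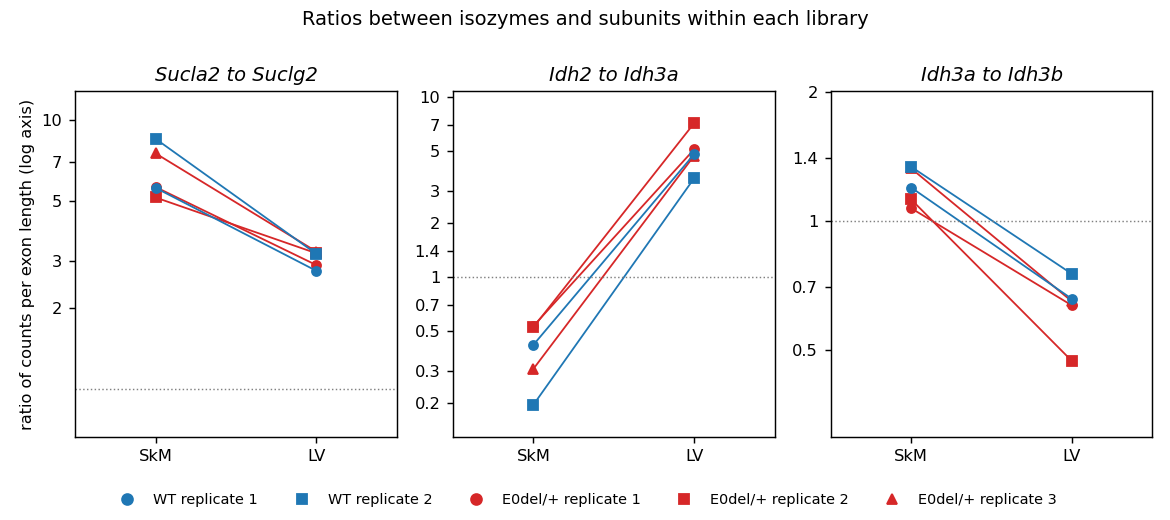
Ratios of counts per exon length between pairs of members within each library (log vertical axes), in SkM and LV, with a line for each of the 5 mice; the dotted line marks a ratio of 1. All 5 lines fall for Sucla2 to Suclg2 and for Idh3a to Idh3b and rise for Idh2 to Idh3a, which crosses 1.

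A few more ratios were chosen after the values were seen. Idh3a to Idh3b per exon length was 0.632 ± 0.102 in LV and 1.21 ± 0.120 in SkM, a log2 difference of -0.95 ± 0.199, lower in LV in 5 of 5 mice. Ogdh to Dlst was 2.03 ± 0.137 in LV and 1.48 ± 0.221 in SkM. Mdh2 to its cytosolic counterpart Mdh1, its partner in the malate-aspartate shuttle, was 0.742 ± 0.0265 in LV and 1.78 ± 0.227 in SkM, so that the mitochondrial form was the lower of the pair per exon length in every LV library and the higher in every SkM library. The tissue ranges of these ratios did not overlap.

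The motifs searched in the promoters were AAGGTCA (the site of the estrogen-related receptors, ERR), CCGGAAG (the core of ETS factors such as GABPA) and GCATGCGC (the core of NRF1), on both strands. None contains another of them. Of all 32851 promoters of 300 bases in the RefSeq table, 4.72% hold the ERR site, 8.86% the ETS core and 2.71% the NRF1 core. Of the 9 members, 8 are in the table, with 13 promoters, and Idh3a is not. Each motif was found in 1 of these 8 genes: the ETS core in Idh3b, at -5 to 1 from the start site on the opposite strand, the ERR site in the fourth Ogdh promoter, at -5 to 1 on the opposite strand, and the NRF1 core in the fifth and sixth Ogdh promoters. Of the 8 other cycle enzymes, 7 are in the table, and the ETS core was found in 4 of them (Idh3g, Dlst, Sdhb and Sdhd), the ERR site in Sdhd and the NRF1 core in Sdhb. A match says only that these letters are there.

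Genes around the cycle were read from fixed lists in the same fit. Of 7 cytosolic isozymes and paralogues, 6 were tested and 4 were called higher in LV, none lower, with a median log2 difference of 0.76. The largest were Ogdhl at 5.23, Mdh1 at 1.48 and Idh1, the cytosolic NADP-dependent isocitrate dehydrogenase, at 0.85. Mdh1 was the most abundant of that list per exon length, with 1867 ± 198 CPM in LV and 421 ± 22.5 CPM in SkM (SD, n = 5 each). Of 13 genes of pyruvate entry and its control, 3 were called higher and 3 lower, with a median of 0.08. Here the pyruvate dehydrogenase phosphatases parted: Pdp2 was called higher in LV (1.73) and Pdp1 lower (-1.52), as was Pdpr (-1.14), their regulatory subunit, which was not called on total counts (-0.50). Pdk2, the most abundant gene of the list per exon length and a kinase that switches the dehydrogenase off, was called lower (-0.55) on the TMM scale and turned to 0.11, uncalled, on total counts. On total counts 9 of the 13 were called higher and 1 lower.

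Of 17 genes of anaplerosis, ketone use and shuttles, 7 were called higher in LV and 5 lower, with a median log2 difference of 0.12. Slc25a13, a mitochondrial aspartate-glutamate carrier, was at 122 to 186 CPM in LV and 0.172 to 2.09 CPM in SkM, a log2 difference of 6.71. Slc25a12, the other such carrier of the list, was called lower in LV on both scales, at -1.46 and, on total counts, -0.79. Bdh1, the first enzyme of ketone body oxidation, had 3.66, and Oxct1, which activates acetoacetate and was the most abundant gene of the list per exon length, had 1.38. Pcx, pyruvate carboxylase, which refills oxaloacetate, was lower in LV, at -2.52. On total counts 12 were called higher and 3 lower. Bdh1, Oxct1 and Idh2 were thus called higher in LV on both scales, and Pcx lower on both.

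Of 19 genes of mitochondrial import, membrane and chaperones, 3 were called higher in LV and 5 lower on the TMM scale, with a median of 0.13, against 13 higher and 2 lower on total counts. Vdac3 (-1.16) and Vdac1 (-1.07), outer membrane channels of which Vdac1 was the most abundant gene of the list per exon length, were lower in LV on both scales, and Tomm40 (0.93), the pore of the import complex, was higher on both. Of 11 regulators of mitochondrial genes, 6 were called higher in LV and none lower, with a median of 0.53, and 10 were called higher on total counts. The largest log2 differences were those of the nuclear receptors Esrrb (2.34), Ppara (2.05) and Esrrg (1.24). The most abundant per exon length was Perm1, listed as 2310042D19Rik, at 618 ± 90.2 CPM in LV and 269 ± 26.3 CPM in SkM, with a log2 difference of 0.53. Beside these counts, all genes tested were called higher in 32.1% and lower in 30% on the TMM scale, and higher in 59.3% and lower in 12% on total counts.

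Outside the lists, the 5 genes whose per-mouse log2 ratios of LV to SkM lay closest to the members' median, among 2176 candidates with at least 50 CPM in both tissues, were Cox10, Itfg3, Calcoco1, Med16 and Clptm1. Their root mean square distances over 5 mice were 0.0610 to 0.0964. Their mean log2 ratios ran from 0.23 to 0.33.

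Markers of other cell types differed between the tissues too, and the most abundant of each list is named per exon length. Higher in LV were all 5 endothelial markers (966 to 1927 CPM summed in LV, 105 to 221 CPM in SkM), with Kdr at a log2 difference of 2.77, Tie1 at 2.44 and the most abundant, Cdh5, at 1.99. All 5 fibroblast markers were higher in LV (837 to 1526 CPM against 136 to 476 CPM), with Pdgfra at 2.20, the most abundant, Dcn, at 1.69 and Col1a1 at 1.59. Of the 5 macrophage and leukocyte markers 3 were higher in LV (53.4 to 85.6 CPM against 3.72 to 88.0 CPM). These were the most abundant, Csf1r, at 2.37, Emr1 at 2.24 and Cd68 at 1.79. Cd14 (0.88) and Ptprc (-1.11), which went the other way, were not called. By CPM, Ptprc led the list in SkM of E0del/+ replicate 1 (80.1 CPM) and WT replicate 1 (39.1 CPM). Of the 3 smooth muscle markers 2 were higher in LV (172 to 285 CPM against 34.8 to 125 CPM), the most abundant, Acta2, at 1.53 and Myh11 at 0.70. These cells also carry mitochondria, and their part in the members' differences was not tested.

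The remaining marker lists were as follows. Of the 4 blood markers 2 were tested and both were higher in LV (125 to 161 CPM against 13.3 to 117 CPM), Alas2 at 1.11 and the beta globin listed as Beta-s, the most abundant, at 1.08, while Hba-a1 and Hba-a2 were listed at 0 in every library. Of the 3 brown adipocyte markers only Cidea was tested and was higher in LV at 2.14 (sums of 14.5 to 20.7 CPM against 0.466 to 16.6 CPM), while Ucp1 and Elovl3 were each at 0 in 4 of 5 LV libraries and in no SkM library. None of the 5 adipocyte markers was called, although they summed to 1.83 to 279 CPM in LV and 8.69 to 1183 CPM in SkM, with Cfd the most abundant. Of the 2 Schwann cell markers given here 1 was lower in LV (8.46 to 14.5 CPM against 8.39 to 50.2 CPM), Mbp, the more abundant per exon length, at -1.87. Of the 4 atrium markers 3 were tested, with 1 higher in LV, Nppa (6.09), and 1 lower, Sln (-2.95), and sums of 202 to 594 CPM in LV and 5.42 to 17.2 CPM in SkM. In the ventricle list Mybpc3 (9.19), Tnnt2 (8.66) and the most abundant, Myh6 (8.58), differed most, and in the fast fibre list Actn3 (-9.93), Myh4 (-9.92) and Mylpf (-9.65), with the LV library of WT replicate 2 included, where these 3 were far higher than in the other LV libraries.

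The slow fibre list was also read beside the members within SkM. Of its 4 genes, Myh7b (5.06) was higher in LV and Tnni1 (-6.69) and Tnnt1 (-3.07) were lower, while the most abundant, Myh7 (1.18), was not called on the TMM scale and was called on total counts (1.83). In SkM the list summed to 1011 and 93.4 CPM in WT replicates 1 and 2, and to 1408, 1871 and 200.2 CPM in E0del/+ replicates 1, 2 and 3, and Myh7 alone to 824, 73.8, 1193, 1548 and 159.7 CPM in the same order. No slow fibre marker was at 0. Idh2 in SkM was at 213, 110.3, 246, 254 and 163 CPM in the same order, and Suclg2 at 77.5, 52.2, 73.0, 79.1 and 56.8 CPM. The low libraries of the slow fibre list, WT replicate 2 and E0del/+ replicate 3, were also the low libraries of Idh2 and of Suclg2. By CPM the same libraries were the lowest for Ogdh (1203 and 1345 against 1402 to 1471) and Idh3b (377.9 and 356 against 378.2 to 385). They were the highest for Cs (968 and 1046 against 911 to 936), Idh3a (799 and 747 against 651 to 716) and Mdh2 (549.7 and 488 against 452 to 477). Sucla2 and Fh1 showed neither order. These are 5 libraries, too few for a correlation, and the part of fibre type in the values of these members was not tested. The same mice had almost no Xist, at 0.343 and 0.422 CPM in SkM against 278 to 397 CPM in the other 3 mice. Their SkM libraries also had the only negative rho with exon length in that tissue, -0.470 and -0.116 against 0.246 to 0.367. Their ventricle marker sums (90.0 and 115 CPM) and endothelial sums (105 and 174 CPM) were the lowest in SkM too. Their adipocyte sums were the lowest and the highest, 8.69 and 1183 CPM. Slow fibre level, Xist level and the exon length trend therefore cannot be told apart here.

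The second question was whether losing E0 on 1 allele went with a change in these enzymes. In LV none of the 13420 genes tested was called between E0del/+ and WT by the edgeR quasi-likelihood test (0%). At an unadjusted p under 0.05 by that test there were 564 (4.2%). The DESeq2 Wald test called 12, of which 11 were lower in E0del/+. Of the 12, 7 are in the fast fibre list, which summed to 26975 CPM in LV of WT replicate 2 against 113 to 128 CPM in the other LV libraries. The part of that library in these calls was not tested. In SkM none of 13154 was called (0%), with 114 at an unadjusted p under 0.05 (0.867%) and 0 by DESeq2. Of the 9 members, 0 were called by edgeR in either tissue, 0 had an unadjusted p under 0.05 in these fits, and 0 were called by DESeq2. These fits have no block, although r between batch mates was 0.518 and 0.310 in SkM, values that are not independent of each other. With the replicate as a block, 596 of 13154 genes in SkM, and 1 of the 9 members, had an unadjusted p under 0.05 by edgeR. With Xist as a block there were 306 of 13154, again with 1 of the 9 members. In either fit 0 members were called. Ttn itself had log2 differences of -0.45 (SE 0.267) in LV and -0.17 (SE 0.244) in SkM, neither called. Without WT replicate 2, whose LV library held skeletal muscle transcripts, they were -0.25 (SE 0.387) in LV and -0.33 (SE 0.291) in SkM. That fit, read for Ttn after its values were seen, has 1 WT library left per tissue, so its spread comes from the E0del/+ libraries alone. Ttn was higher in SkM than in LV, with a log2 difference of -1.97 for LV against SkM. The members' log2 differences ran from -0.13 to 0.27 in LV and from -0.13 to 0.49 in SkM, with medians of -0.000383 and -0.01 beside -0.01 and -0.01 for all genes tested. The term for a difference of the genotype effect between tissues, tested over 14327 genes with mouse as a block, gave 0 calls by edgeR (0%), 238 genes at an unadjusted p under 0.05, none of them a member, and 0 calls by DESeq2.

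Single members were then read as TMM-scaled CPM per library. Idh2 in LV was at 2588 and 2032 in WT replicates 1 and 2, and at 2827, 2818 and 2740 in E0del/+ replicates 1, 2 and 3. All 3 E0del/+ values lay above both WT values, by a log2 difference of 0.29 (exact permutation of labels, p = 0.1, the smallest that 2 against 3 allow), and by 0.13 within batch 1 and 0.47 within batch 2. The lower WT value is that of the LV library that held skeletal muscle transcripts. Without that mouse, with 1 WT library left, the log2 difference was 0.11, and the part of those transcripts in the difference was not tested. Idh3b in LV also did not overlap, with 729 and 681 in WT and 775, 746 and 797 in E0del/+, a log2 difference of 0.13 (exact permutation, p = 0.1) and 0.09 and 0.13 within batches 1 and 2. These 2 of 9 members stand beside 16.5% of all genes tested in LV whose groups did not overlap.

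In SkM only Ogdh did not overlap, with 1282 and 1311 in WT and 1388, 1535 and 1358 in E0del/+ on the TMM scale, a log2 difference of 0.14 (exact permutation, p = 0.2) and 0.11 and 0.23 within batches 1 and 2. That 1 of 9 stands beside 11.9% of all genes tested in SkM. Idh2 in SkM had the largest log2 difference, 0.51, but the groups overlapped, with 194.6 and 120.2 in WT and 235, 266 and 165 in E0del/+ (exact permutation, p = 0.3), and it was 0.27 within batch 1 and 1.14 within batch 2. Over the 13 alternatives, which include leaving out each mouse in turn, its log2 difference ran from 0.19 to 0.88. The low values of Idh2 were again those of the mice low in slow fibre markers. E0del/+ replicate 2 was the lowest LV library for Cs, Idh3a, Ogdh, Sucla2, Suclg2 and Mdh2 on the TMM scale, and without it the log2 differences in LV of Cs, Idh3a, Ogdh, Sucla2 and Suclg2 changed from below 0 to 0.07, 0.02, 0.16, 0.14 and 0.08, none called.

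**Figure D5:**
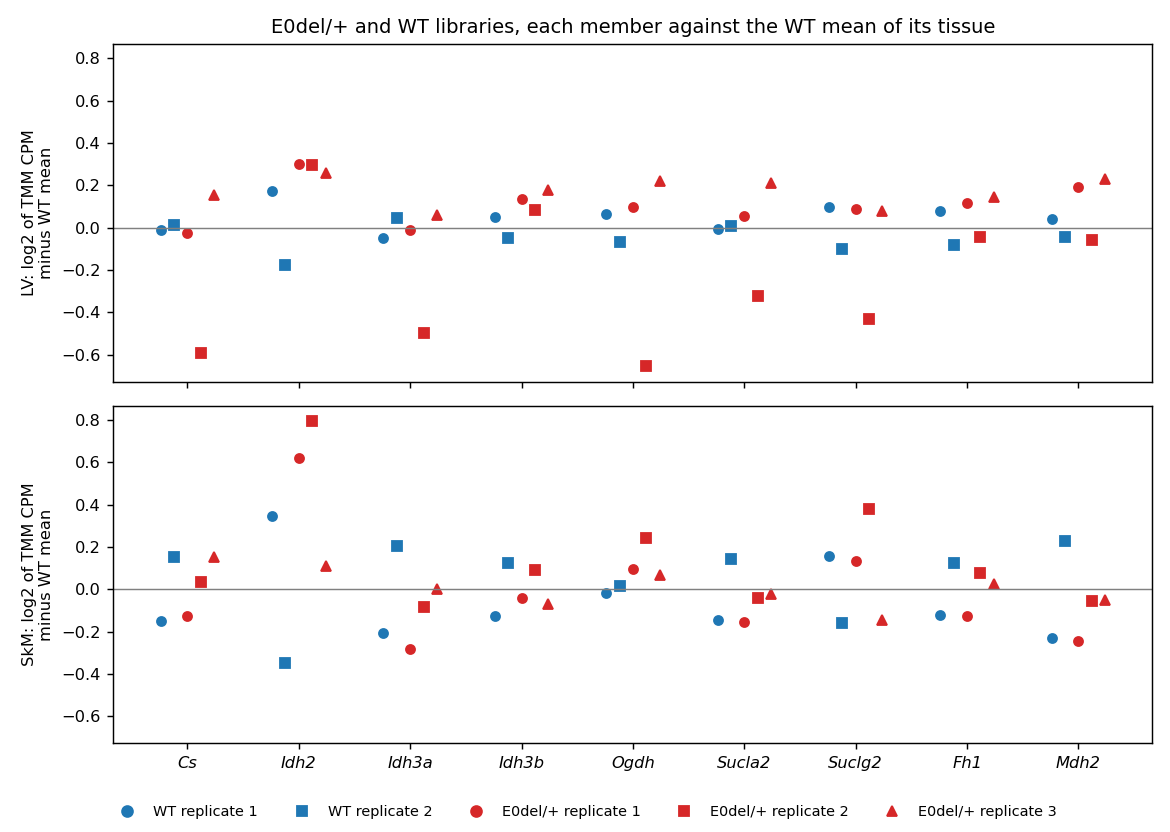
TMM-scaled CPM of each member in each library as log2 above or below the mean of the WT libraries of its tissue (vertical axes), LV in the upper panel and SkM in the lower, blue for WT and red for E0del/+. In LV the groups did not overlap for Idh2 and Idh3b and in SkM for Ogdh, and E0del/+ replicate 2 was the lowest LV library for Cs, Idh3a, Ogdh, Sucla2, Suclg2 and Mdh2.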

How the data were processed

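RNA was taken with TRIzol, poly(A)-selected in 2 rounds and made into Nextera XT libraries, and the submitters' processing notes name STAR, DESeq2 and mm10 without versions. Per the file headers, the deposited files give for each gene of a library the raw count, the RPKM computed by the authors and the summed exon length in bp. The raw counts were used as counts and as CPM of the library total, and the authors' RPKM for levels per exon length; it equals the count divided by length and library total. Library totals were 11010021 to 17484873, and 0 columns of no sample were used. The members and gene lists were chosen with earlier results of these data known; 141 of 143 list entries matched a listed symbol, and Mpc1, Mpc2, Hbb-bs, Adgre1 and Perm1 were read as Brp44l, Brp44, Beta-s, Emr1 and 2310042D19Rik.

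LV and SkM were compared with edgeR 4.0.16 in R 4.3.3 (TMM, filterByExpr, quasi-likelihood test, mouse as a block), with Benjamini-Hochberg adjustment over all genes tested and a threshold of 0.05. E0del/+ and WT were compared within each tissue in the same way without a block, and a tissue by genotype term was fitted with mouse as a block. Single values were compared by two-sided exact permutation of signs over 5 mice or of labels over 5 libraries. The fits were tested on simulated data. Alternatives were DESeq2 1.42.0 size factors or its Wald test, total counts, no filter or at least 10 counts in every library, with and without the block, each mouse left out in turn, both WT mice left out, and 1 fit over 4 groups. A block for Xist above 100 CPM was chosen after seeing the data.

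All 9 members and the 8 other cycle enzymes were named, and of every other list up to 3 called genes of largest log2 difference and the most abundant per exon length. Slc25a12 was named in addition, after its values were seen. The lists were cytosolic isozymes and paralogues, pyruvate entry, anaplerosis with ketone use and shuttles, mitochondrial import, regulators of mitochondrial genes, and marker lists for fibroblasts, blood, endothelium, smooth muscle, Schwann cells, white and brown fat, leukocytes with macrophages, slow fibres, fast fibres, atrium and ventricle. A few genes are not reported here, and the lists are given without them.

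Pairing was checked across genes on log2 CPM less the mean of the same tissue and genotype. On these values r between LV and SkM of a mouse was -0.101 to 0.0918. Between WT and E0del/+ of a batch it was 0.0310 and -0.118 in LV and 0.518 and 0.310 in SkM. With 2 WT mice, their values are equal and opposite, so both gave the same r, 0.0899. The values of the 2 batches are therefore not independent. The pairing therefore rests on the library names, although Xist, high or near 0, agreed between the tissues of each of the 5 mice. Promoters came from RefSeq (GRCm38.p6), and copies were searched in GENCODE vM21 transcripts with BLAST+ 2.17.0 at 95% identity or more over at least 100 bases. Exons of Idh3b share 5 bases with Nop56, and the libraries are unstranded.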

Additional observations from a re-analysis of the deposited data

Results flagged for a closer look

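Within groups of 5 libraries or mice, 12 of 91 sets of values had 1 value whose gap to the nearest other was large against the range by Dixon's ratio. Chance gives about 1 in 20. Several of them share a library.

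In LV of WT replicate 2, the fast fibre markers summed to 26975 CPM against 113 to 128 CPM in the other LV libraries, the adipocyte markers to 279.0 CPM against 1.83 to 23.7 CPM, and Fh1 stood at 343.0 CPM against 411 to 424 CPM. In that list Cfd was the most abundant adipocyte gene, at 158.7 CPM. The part of the added skeletal muscle and adipocyte transcripts in the Fh1 value was not tested.

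In LV of E0del/+ replicate 2, Idh3a stood at 618.7 CPM against 749 to 775 CPM in the other LV libraries. Of the members' summed RPKM there, Ogdh took 9.33% against 13.2 to 13.9% and Idh3b 11.4% against 9.87 to 10.2%. In the same mouse the log2 ratio of LV to SkM was 0.17 for Ogdh, against 0.98 to 1.26 in the other mice, and 0.072 for Suclg2, against 0.91 to 1.15. This LV library also had the highest endothelial sum, 1927 CPM, and the lowest rho with exon length of the LV libraries, -0.204. The part of either was not tested.

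In SkM of E0del/+ replicate 3, Idh3b stood at 356.5 CPM against 378 to 385 CPM and Sdhb at 288.1 CPM against 337 to 350.2 CPM. Fh1 in SkM of E0del/+ replicate 1 stood at 199.9 CPM against 208 to 210.1 CPM, and Mdh2 in LV of WT replicate 1 took 14.2% of the members' summed RPKM against 14.8 to 14.9%, both small in size.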

How the results depend on the processing

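Over the 12 alternatives for LV against SkM, 6969 to 9471 genes were called, and the SD over the members stayed at 1.04 to 1.11. Idh2 and Suclg2 were called higher in LV in all 12. The number of members called higher was 8 on total counts, 4 by the DESeq2 Wald test, 5 with at least 10 counts in every library, 5 with no mouse block and 3 to 5 with 1 mouse left out. On total counts Idh3a turned to 0.036 (not called) and Sucla2 to 0.40 (called), by the construction of that scaling, which moves all genes by 0.66. Between E0del/+ and WT in LV, the genes called were 12 by the DESeq2 Wald test and 5 with the replicate as a block, and 0 to 578 with 1 mouse left out. The 578 came without WT replicate 1, with 574 lower in E0del/+, where the lone WT library is the one with skeletal muscle transcripts and is assumed to vary like the others. Of the 12, 7 are in the fast fibre marker list, Myh4 and Actn3 among them. In SkM 1 gene was called with the replicate as a block, and the interaction gave 0 to 155 genes with 1 mouse left out, 155 without WT replicate 1. The genes called with the block were Mstn, Kdm5d, Eif2s3y, Uty and Ddx3y in LV and Eif2s3y in SkM, named after their values were seen. All but Mstn are on the Y chromosome, and within batch 2 Xist was near 0 in the WT mouse and high in the E0del/+ mouse. No member was called between genotypes in any of 13 alternatives in either tissue. With no pairing, the ratio differences were -1.06 for Sucla2 to Suclg2 and 3.74 for Idh2 to Idh3a (exact permutation of labels, p = 0.00794). With 1 mouse left out they were -1.16 to -0.97 and 3.62 to 3.85, and the exact p could not go below 0.125. Except where stated, the cause was not tested. Depth did not limit the members, whose lowest count was 807, but 2 WT mice against 3 E0del/+ mice limit each exact p to 0.1 or more.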

Other observations

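The order of the LV libraries differed between members. By CPM, E0del/+ replicate 2 was the highest LV library for Idh2 (3144 CPM), Idh3b (832 CPM) and Fh1 (424 CPM), and the lowest for Cs (1269 CPM), Idh3a (619 CPM), Ogdh (3141 CPM), Sucla2 (468 CPM) and Suclg2 (158 CPM). The members highest in it have summed exons of 1520 to 1702 bp, and the members lowest in it 2108 to 6984 bp. Mdh2, the shortest at 1282 bp, was neither. This library had the lowest rho with exon length in LV, -0.204, and the part of exon length in this order was not tested. Within the NAD-dependent isocitrate dehydrogenase alone, the ratio of Idh3a to Idh3b per exon length in LV was 0.657 and 0.751 in WT replicates 1 and 2, and 0.634, 0.470 and 0.648 in E0del/+ replicates 1, 2 and 3. The cause of this spread was not tested.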
